A study of Mus musculus with 6 samples.

Results

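The genes described here lie on mouse chromosome 17 on either side of Skiv2l, the gene deleted in this study. They were taken by position and level: a start coordinate from 33500000 to 36200000 on chromosome 17 (GRCm38) and a mean of at least 1 FPKM over the 6 libraries, with the MHC genes, the lymphotoxin genes and several gene families left out by name. FPKM counts sequenced fragments, corrected for the length of the transcript and the depth of the library. Of 254 gene identifiers in this interval of 2.7 Mb, 47 were left out by name, 111 others lay below the level, and 96 remained, out of 54752 identifiers in the tables. The mean level over all libraries chose these genes, and so their levels are given as a description. The difference between the groups took no part in the choice by level, but the choice and its name filter were made with earlier results of these data known. Distances below run from the Start of Skiv2l at 34839228. Start is the lower coordinate of a gene, which for Skiv2l, on the minus strand, is its 3′ end.

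The messenger RNA came from pro-B cells, B lineage precursors that rearrange their heavy chain locus, sorted from the bone marrow of adult C57BL/6 mice. The Skiv2l-deleted group held 3 mice of the genotype Skiv2lfl/fl-Cd79a-Cre and the control group 3 Skiv2lfl/fl mice, for which no Cre is named. Each mouse gave 1 library. All 6 mice carried the floxed alleles, so any flanking sequence that came with the floxed locus is shared by the groups as far as the labels go. Cd79a-Cre is active in the B lineage from its early stages, and since only the Skiv2l-deleted mice carried it, effects of Cre and of Skiv2l cannot be told apart.

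The product of Skiv2l is the SKI complex helicase, which threads messenger RNA into the cytosolic exosome for decay. It sits in the class III part of the MHC region, among the most gene-dense stretches of mammalian chromosomes, where unrelated genes for transcription, complement, chaperones and metabolism are packed end to end. Its immediate neighbours share its theme of RNA metabolism: Nelfe, a subunit of the negative elongation factor that pauses RNA polymerase II, and Dxo, a decapping exonuclease that removes faulty caps. Many genes in this stretch start back to back from a shared stretch of promoter DNA.

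Libraries held 1.74 to 2.40 Gb of aligned bases, as read from the ratio of coverage to FPKM. The B lineage markers Cd79a, Pax5 and Ebf1 were far above 1 FPKM in every library, and the 3 megakaryocyte markers stayed below 1 FPKM in all 6. Several lineage markers differed between the groups, in opposite directions. The pro-B genes Igll1, Vpreb1, Dntt and Rag1 rose, with log2 fold changes of 1.28, 1.29, 1.5 and 0.76, while Cd79a fell, at −0.84 (limma adjusted p from 0.0122 to 0.0489). Cd79a stood at 367, 368 and 441 FPKM in Skiv2l-deleted libraries, against 726, 640 and 739 FPKM in controls. It is also the gene that the Cre of the Skiv2l-deleted mice is named for. A part of Cre in its fall thus cannot be told apart from one of Skiv2l or of cell state. Of 4 plasma cell markers, Jchain and Sdc1 fell. Jchain was at most 0.233 FPKM in Skiv2l-deleted libraries, against 36.9 to 75.2 FPKM in controls, and Sdc1 averaged 9.64 FPKM in deleted and 25 FPKM in control libraries. Xbp1 did not pass, and Prdm1 was below 1 FPKM throughout. Summed T and NK markers ranged from 9.21 to 12.9 FPKM in Skiv2l-deleted libraries and from 2.64 to 3.69 FPKM in controls, with Klrb1c, which rose, making up most of it and the other 4 of its 5 genes below 1 FPKM throughout. The part of these shifts in the results below was not tested. Skiv2l-deleted 2 and control 3 stood apart from the other libraries. The summed level of 7 myeloid markers was 323, 2240 and 82.7 FPKM in Skiv2l-deleted 1, 2 and 3, against 130, 404 and 1260 FPKM in control 1, 2 and 3, with none of the 7 at 0 in all libraries. Of these, S100a8 and S100a9 were also high in Skiv2l-deleted 1 (100 and 165 FPKM) and control 2 (129 and 217 FPKM). In control 3 they were at 153 and 177 FPKM. Skiv2l-deleted 2 also carried 88.7 FPKM of erythroid markers, against 2.0 to 4.01 FPKM in the other 5 libraries. Where leaving out this pair of libraries changed a call, that is stated with the gene.

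The sequences below belong to genes whose level differed between the groups. For Kifc1 and Tcf19, the 250 bases before the RefSeq start (GRCm38.p6) are printed on the strand of the gene, at chr17:33890634-33890883 (minus strand) for Kifc1 and chr17:35516825-35517074 (minus strand) for Tcf19. The Tcf19 stretch also lies before the first exon of Cchcr1, which starts on the other strand. Capitals mark CCAAT or its reverse complement, a word found in many promoters of cell cycle genes.
Kifc1: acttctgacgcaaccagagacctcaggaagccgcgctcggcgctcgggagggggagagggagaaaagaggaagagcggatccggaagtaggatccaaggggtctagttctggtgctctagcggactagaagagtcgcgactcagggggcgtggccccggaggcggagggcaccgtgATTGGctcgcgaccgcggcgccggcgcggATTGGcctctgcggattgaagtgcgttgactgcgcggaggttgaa
Tcf19: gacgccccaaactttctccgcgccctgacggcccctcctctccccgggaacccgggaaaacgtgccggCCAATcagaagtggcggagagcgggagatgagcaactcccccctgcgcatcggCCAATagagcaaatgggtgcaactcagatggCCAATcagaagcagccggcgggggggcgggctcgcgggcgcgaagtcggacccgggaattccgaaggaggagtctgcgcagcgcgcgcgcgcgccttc

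The mature arms of miR-6973a, whose precursor lies inside the lymphotoxin gene Ltb, are shown with the seed (bases 2 to 8) in capitals, from RefSeq (GRCm38.p6). The 5p arm lies at chr17:35194977-35194998 and the 3p arm at chr17:35195024-35195045, both on the plus strand. The 2 arms have different seeds.
mmu-miR-6973a-5p: uACGGUGGgagggguggaguug
mmu-miR-6973a-3p: cACUCUAAcccuaccuacccau

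The first question was whether deletion of Skiv2l went with a change in the genes beside it. Skiv2l itself stood at 9.53, 16.1 and 10.9 FPKM in Skiv2l-deleted 1, 2 and 3, against 25.4, 20.2 and 46.3 FPKM in control 1, 2 and 3. All 3 deleted libraries lay below all 3 controls. The log2 fold change was −1.21 ± 0.32 (SE), which missed the threshold in limma (adjusted p = 0.063) and passed it without control 3 and Skiv2l-deleted 2 (−1.08, adjusted p = 0.0172), with TPM (−1.24, adjusted p = 0.0479) and narrowly with the other scalings. Reads from exons that were not deleted count toward these values.

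Dxo, which encodes the decapping exonuclease, lies end to end with Skiv2l, and their 3′ ends overlap by 6 bases. It stood at 25.8, 34.9 and 27.7 FPKM in Skiv2l-deleted libraries, against 38.0, 27.8 and 48.0 FPKM in controls. Its groups overlapped, with control 2 as low as Skiv2l-deleted 3. The log2 fold change was −0.33 ± 0.21 (SE), with a 95% interval of −0.84 to 0.17 (limma adjusted p = 0.389).

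Nelfe starts 180 bases from the start of Skiv2l, on the other strand. It stood at 26.2, 26.3 and 23.7 FPKM in Skiv2l-deleted libraries, against 21.1, 23.7 and 30.8 FPKM in controls. The deleted libraries lay inside the range of the controls, and the log2 fold change was 0.03, with a 95% interval of −0.33 to 0.39 (limma adjusted p = 0.938). The interval leaves room for a change of that size in either direction. Within each library, Skiv2l was 0.363, 0.614 and 0.459 times the level of Nelfe in Skiv2l-deleted cells, against 1.2, 0.853 and 1.51 times in controls. This ratio does not depend on the scaling of the library. Its means were 0.479 ± 0.127 in deleted and 1.19 ± 0.326 in control libraries (SD, n = 3 each). The ratio of Skiv2l to Dxo was 0.408 ± 0.0487 in deleted and 0.786 ± 0.157 in control libraries, and that to Stk19 was 0.453 ± 0.106 and 1.23 ± 0.231. These ratios were formed after the values were seen and are given as a description.

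Stk19, named for a serine/threonine kinase, starts 73 bases from Dxo, back to back with it. It stood at 23.5, 28.1 and 28.8 FPKM in Skiv2l-deleted libraries, against 24.3, 17.7 and 31.2 FPKM in controls, with overlapping groups and a log2 fold change of 0.16 (95% interval −0.33 to 0.65, limma adjusted p = 0.69). Its pseudogene Stk19-ps1 stood at 2.06 to 3.50 FPKM in deleted libraries and 2.07 to 4.11 FPKM in controls. Reads shared between Stk19 and this near copy could be split by the quantification.

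On the other side of Nelfe lie the complement gene C2, the zinc finger gene Zbtb12 and Ehmt2, which encodes the histone methyltransferase G9a. Ehmt2 was the steadiest of the near genes, at 71.1, 68.0 and 71.3 FPKM in Skiv2l-deleted libraries, against 75.7, 71.7 and 72.8 FPKM in controls. Its groups did not overlap, yet the difference was small, with a log2 fold change of −0.06 (95% interval −0.28 to 0.15, limma adjusted p = 0.718). Zbtb12 stood at 27.9, 19.1 and 29.3 FPKM in Skiv2l-deleted libraries, against 21.9, 16.5 and 13.1 FPKM in controls. Deleted 2 lay below control 1, so the groups overlapped, and the log2 fold change of 0.55 ± 0.23 (SE) missed the threshold in limma (adjusted p = 0.189). C2, at 1.43, 2.09 and 2.65 FPKM in deleted libraries against 1.55, 0.709 and 1.04 FPKM in controls, had a like value of 0.54 (limma adjusted p = 0.183). C2 spans Zbtb12 on the opposite strand and their exons share 161 bases. The strand setting of the authors' quantification is not given, so reads of these genes cannot be told apart there. On its own strand, C2 shares 1656 exon bases, 42.8% of its own, with Gm20547, so its value cannot be read alone.

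Neu1 encodes the lysosomal sialidase. It stood at 21.5, 29.5 and 20.7 FPKM in Skiv2l-deleted libraries, against 14.0, 13.2 and 23.3 FPKM in controls. Control 3 was the one control above a deleted library. The log2 fold change was 0.51 ± 0.24 (SE, limma adjusted p = 0.243). Without control 3 and Skiv2l-deleted 2 it was 0.60 and passed (limma adjusted p = 0.0264), and without control 3 alone it was 0.75 (limma adjusted p = 0.0408). Neu1 is also 1 of the 25 neighbourhood genes that were highest in the pair of libraries rich in myeloid markers, whose part in its values was not tested. The next genes out, the processed transcript 1110038B12Rik and the pseudogene Gm8696, had log2 fold changes of 0.23 (limma adjusted p = 0.462) and −0.17 (limma adjusted p = 0.572). 1110038B12Rik stood at 82.7, 87.2 and 76.3 FPKM in Skiv2l-deleted libraries, against 63.7, 59.0 and 90.2 FPKM in controls, and passed without control 3 (0.41, limma adjusted p = 0.0468).

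**Figure D1:**
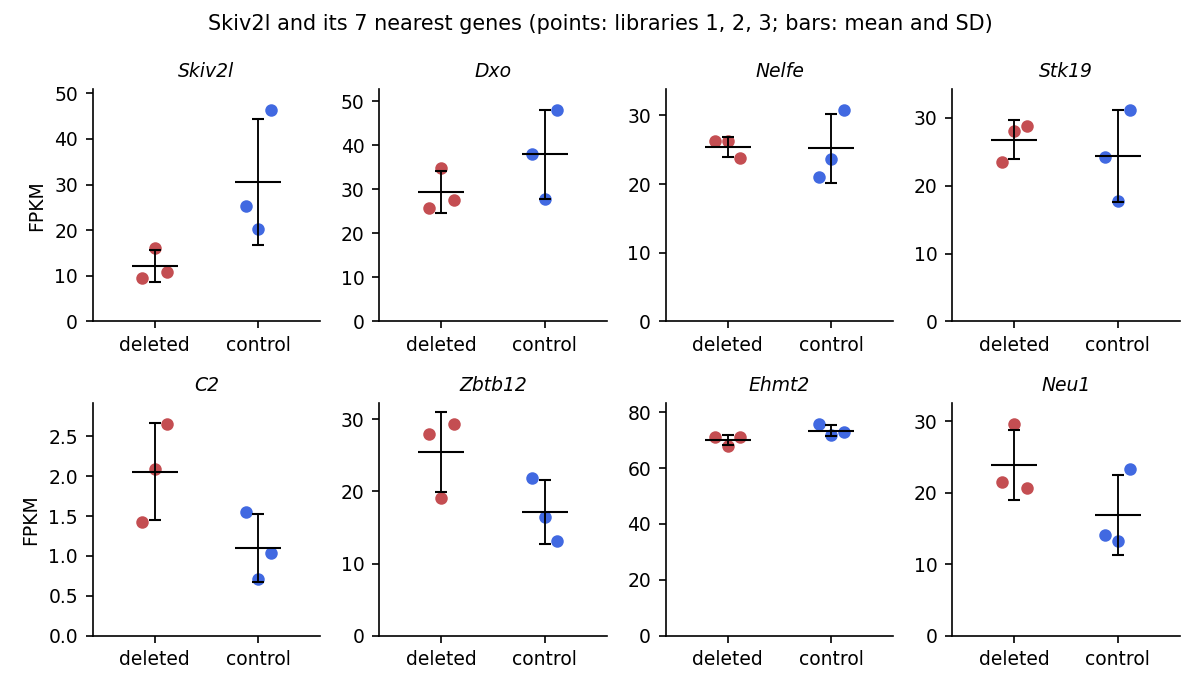
FPKM of Skiv2l and the 7 expressed genes nearest to it by Start, with Skiv2l-deleted libraries left (red) and control libraries right (blue) in each panel. Points are libraries 1, 2 and 3, and bars are the mean and SD. Skiv2l is lower in all 3 deleted libraries, while Nelfe, Stk19 and Dxo overlap between the groups.

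Across the neighbourhood, few genes differed. The difference was tested with limma on log2(FPKM + 1) over the 13539 genes that reached 1 FPKM in 3 or more libraries. This took in 95 of the 96 genes and left out Gm8909, listed at 3.37, 0 and 0 FPKM in Skiv2l-deleted libraries and 0, 0 and 4.31 FPKM in controls. Of the 95, 6 changed at an adjusted p below 0.05 (6.32%), against 8.84% of all genes tested. There were 2 that rose, where 4.97% of all genes did, and 4 that fell, where 3.87% did. A further 9 were under an unadjusted p of 0.05 only, for 15 of the 95 in all, against 3463 of the 13539 genes tested. The share called in the neighbourhood was thus near the background share, and it was 7.08% on the rest of chromosome 17. The genes left out by name must be counted apart: 5 of those 39 changed (12.8%), Ltb among them.

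The median log2 fold change was 0.04 (quartiles −0.12 and 0.19), against a median of 0.06 (quartiles −0.15 and 0.28) over all genes tested. Values were above 0 for 55 genes and below 0 for 40. The groups did not overlap in 15 of the 95 genes (15.8%), against 32.2% of all genes tested. For 72 of the 95 genes the 95% interval excluded a change of 1 log2 unit in either direction, which held for 80.2% of all genes tested. Among the other 23, the interval of the Mir6973a precursor, described below, lay wholly above 1 log2 unit. For the rest of these 23 the data do not settle whether a change of that size was present.

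The nearest of the 6 genes that changed was Ddah2, at 219.8 kb, and 20 neighbourhood genes lay nearer. Of all genes tested 8.84% were called, and at that share 20 genes would hold few calls. Their lack of calls is thus not read as an effect of distance. The log2 fold changes of these 20 genes ran from −0.33 to 0.55. The groups failed to overlap in 1 of them (Ehmt2), against 32.2% of all genes tested. The interval excluded a change of 1 log2 unit in 14 of the 20, against 80.2% of all genes tested. In bins of absolute distance, limma called 0 of 8 genes up to 100 kb (2 at an unadjusted p under 0.05). It called 1 of 26 from 100 to 300 kb, 2 of 13 from 300 to 600 kb and 3 of 48 beyond 600 kb. These shares were 0%, 3.85%, 15.4% and 6.25%, against 8.84% of all genes tested. The median log2 fold changes in that order were 0.09, 0.03, 0.40 and 0.03. In the nearest bin the median was 0.51 for the 5 genes at higher coordinates, C2, Zbtb12 and Neu1 among them, and −0.06 for the 3 at lower coordinates. The bins of 8 and 13 genes are thin. The nearest bin moved to a median of 0.23 with 1 call (Neu1), and the 300 to 600 kb bin to a median of 0.07, without control 3 and Skiv2l-deleted 2. Over the 95 genes, distance and log2 fold change had a Pearson r of −0.14 and a Spearman rho of −0.13, and distance and the size of the change had 0.03 and 0.12. These correlations describe genes that share the same 6 libraries and, in places, overlapping exons.

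**Figure D2:**
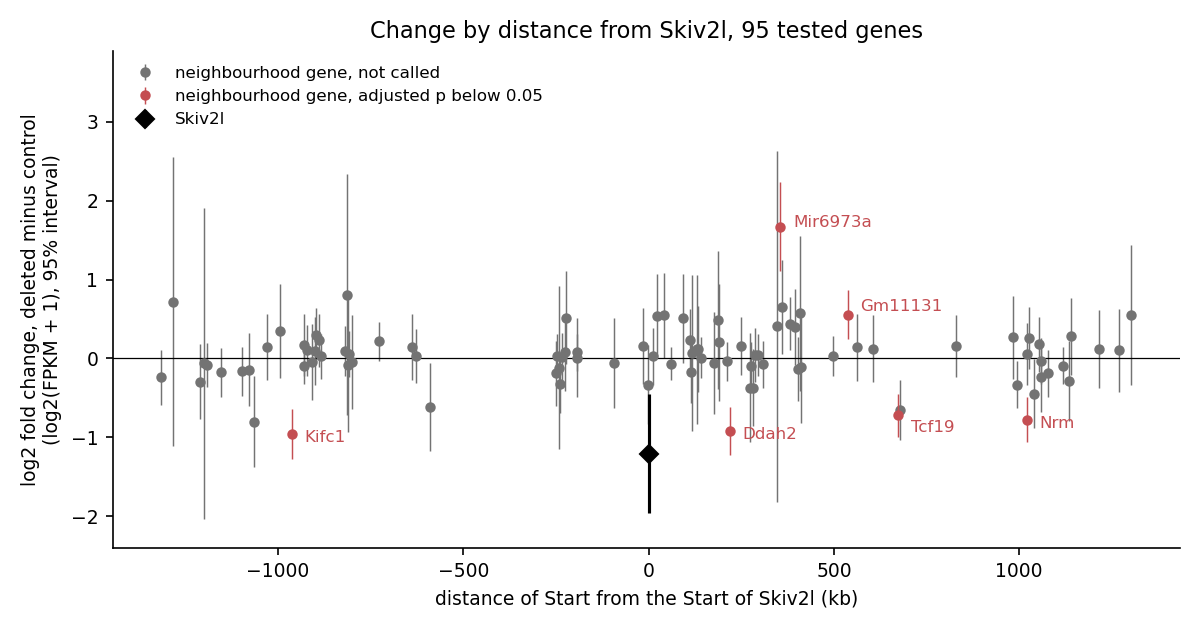
Log2 fold change (Skiv2l-deleted minus control, log2(FPKM + 1)) of the 95 tested genes against the distance of their Start from that of Skiv2l, in kb, with 95% intervals. Red points passed an adjusted p of 0.05 and the black diamond is Skiv2l. The red points lie at 219.8 kb or more, and the 20 genes nearer to Skiv2l lie between −0.33 and 0.55.

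**Figure D3:**
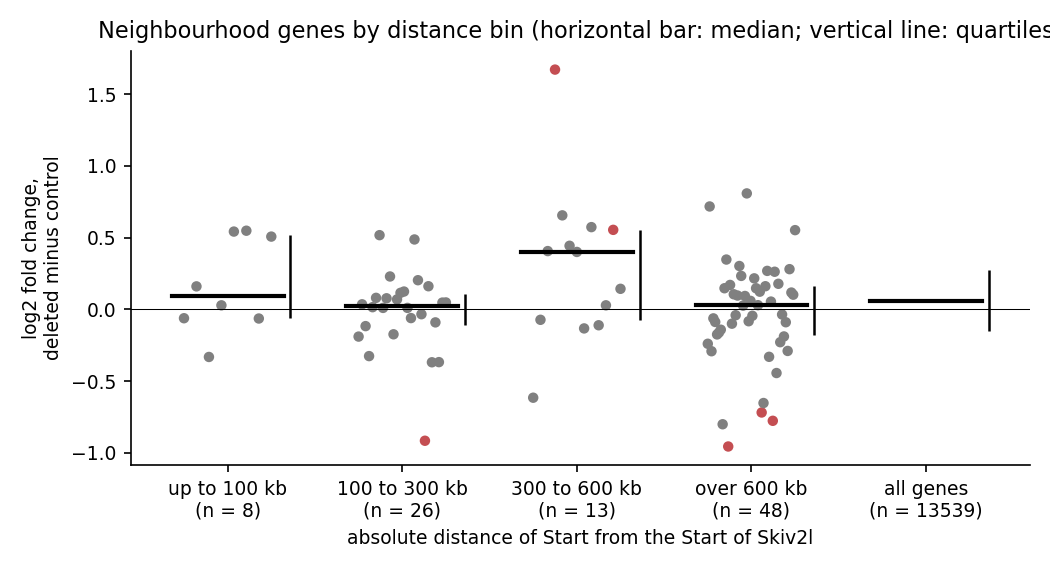
Log2 fold change (Skiv2l-deleted minus control) of the tested neighbourhood genes in 4 bins of absolute distance from Skiv2l. Each point is a gene (red: adjusted p below 0.05), horizontal bars are medians, vertical lines span the quartiles, and the last column gives the median and quartiles of all 13539 genes. The medians run 0.09, 0.03, 0.40 and 0.03 with rising distance.

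The 4 genes that fell were Kifc1, Ddah2, Nrm and Tcf19. Kifc1 encodes a minus-end directed kinesin that focuses the poles of the mitotic spindle. It stood at 38.4, 43.9 and 46.5 FPKM in Skiv2l-deleted libraries, against 77.1, 78.6 and 97.9 FPKM in controls. The groups lay far apart, with means of 43.0 ± 4.13 and 84.5 ± 11.6 FPKM (SD, n = 3 each), and the log2 fold change was −0.96 ± 0.13 (SE, limma adjusted p = 0.0104). It lies 963.6 kb from Skiv2l, on the side of lower coordinates. The 250 bases before its start, printed above, hold 2 copies of the CCAAT word, 74 and 45 bases before the start.

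Ddah2 encodes a protein related to the enzyme that breaks down dimethylarginine. It stood at 29.4, 35.4 and 35.4 FPKM in Skiv2l-deleted libraries, against 59.2, 60.7 and 72.0 FPKM in controls. Each deleted library was well below each control, and the log2 fold change was −0.92 ± 0.13 (SE, limma adjusted p = 0.0103).

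Nrm encodes nurim, a protein of the inner nuclear membrane. It stood at 48.6, 61.1 and 55.5 FPKM in Skiv2l-deleted libraries, against 100.8, 88.0 and 95.6 FPKM in controls, again without overlap. The log2 fold change was −0.78 ± 0.12 (SE, limma adjusted p = 0.0138). The antisense transcript Ppp1r18os shares 200 exon bases with Nrm on the other strand, at 2.16 to 2.85 FPKM in deleted libraries and 1.98 to 2.93 FPKM in controls, a small level beside that of Nrm.

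Tcf19, a gene first described for its higher level at the G1/S transition, starts back to back with Cchcr1, which did not pass. Tcf19 stood at 54.0, 58.9 and 51.5 FPKM in Skiv2l-deleted libraries, against 95.3, 97.2 and 80.5 FPKM in controls. Its groups did not overlap, and its log2 fold change was −0.72 ± 0.12 (SE, limma adjusted p = 0.0151). Cchcr1, whose protein is a coiled-coil protein of the centrosome and of P-bodies, starts 275 bases away on the other strand. It stood at 16.1, 17.7 and 16.4 FPKM in Skiv2l-deleted libraries, against 29.3, 21 and 31.3 FPKM in controls, and its groups did not overlap either. Its log2 fold change of −0.65 ± 0.16 (SE) missed the threshold (limma adjusted p = 0.0538), and passed it with TPM, upper-quartile scaling or quantile normalization and without control 2 (lowest limma adjusted p = 0.0326). The stretch between them, printed above, holds 3 copies of the CCAAT word, at 182, 129 and 98 bases before the start of Tcf19.

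The CCAAT word, sought on both strands, was found in 33.8% of 32851 windows of 250 bases before RefSeq starts, 2 or more copies in 10.1% and 3 or more in 2.79%. It was found in 31 of the 71 neighbourhood genes with a window in the table, and in 2 of the 4 genes that fell. The words TTTCCCGC, TTTCGCGC, TTTGCCGC and TTTGGCGC, which fit the E2F consensus, were found in 1.86% of all windows, and the word TTTGAA of the cell cycle homology region in 16%. Neither was found in the windows of the 4 genes that fell. The 250 bases before Ddah2 and Nrm held none of these words.

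Both genes that rose are noncoding features that lie against or inside a gene left out by name. The Mir6973a precursor is a feature of 78 bases in an intron of Ltb, which encodes lymphotoxin beta, on the same strand. It stood at 4.96, 6.66 and 4.57 FPKM in Skiv2l-deleted libraries, against 0.47, 1.57 and 1.09 FPKM in controls, a log2 fold change of 1.67 ± 0.24 (SE, limma adjusted p = 0.0114). Ltb itself stood at 58.8, 70.0 and 61.9 FPKM in Skiv2l-deleted libraries, against 17, 16.3 and 21.8 FPKM in controls, a log2 fold change of 1.74. The mean FPKM was 5.18 times as high in deleted as in control libraries for Mir6973a and 3.46 times for Ltb. With a pseudocount of 0.1 their log2 fold changes were 2.38 and 1.79. Mir6973a did not pass without Skiv2l-deleted 1 (limma adjusted p = 0.0563), without Skiv2l-deleted 3 (limma adjusted p = 0.0509) or with no filter on low values (limma adjusted p = 0.0543). Reads of the unspliced Ltb transcript cover the feature too, and libraries of messenger RNA do not measure the mature arms printed above. Gm11131, an antisense transcript that shares 496 exon bases with the MHC class I gene H2-Q4, stood at 5.51, 5.66 and 6.62 FPKM in Skiv2l-deleted libraries, against 4.01, 3.68 and 3.46 FPKM in controls. Its groups did not overlap, and its log2 fold change of 0.55 ± 0.13 (SE) passed narrowly (limma adjusted p = 0.0476). It passed in 4 of 16 alternatives, and with TPM, either other scaling or any 1 library left out it did not pass (highest limma adjusted p = 0.213), nor without control 3 and Skiv2l-deleted 2 (limma adjusted p = 0.071).

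The calls of the 4 genes that fell depended on single libraries, as did the counts over all genes tested. In all, 71 genes rose and 113 fell without Skiv2l-deleted 1, and 63 rose and 116 fell without Skiv2l-deleted 3. With all 6 libraries these counts were 673 and 524. Without Skiv2l-deleted 1 none of the 4 passed (lowest limma adjusted p = 0.0563), and without Skiv2l-deleted 3 Kifc1 alone of them did. Nrm and Tcf19 were also lost without control 1 (limma adjusted p = 0.0587 and 0.0633), and Tcf19 without control 2 (limma adjusted p = 0.054). The log2 fold changes of the 4 stayed between −0.67 and −1.02 over all alternatives. With control 3 and Skiv2l-deleted 2 left out, all 4 passed, at −0.86 for Kifc1, −0.87 for Ddah2, −0.85 for Nrm and −0.86 for Tcf19.

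**Figure D4:**
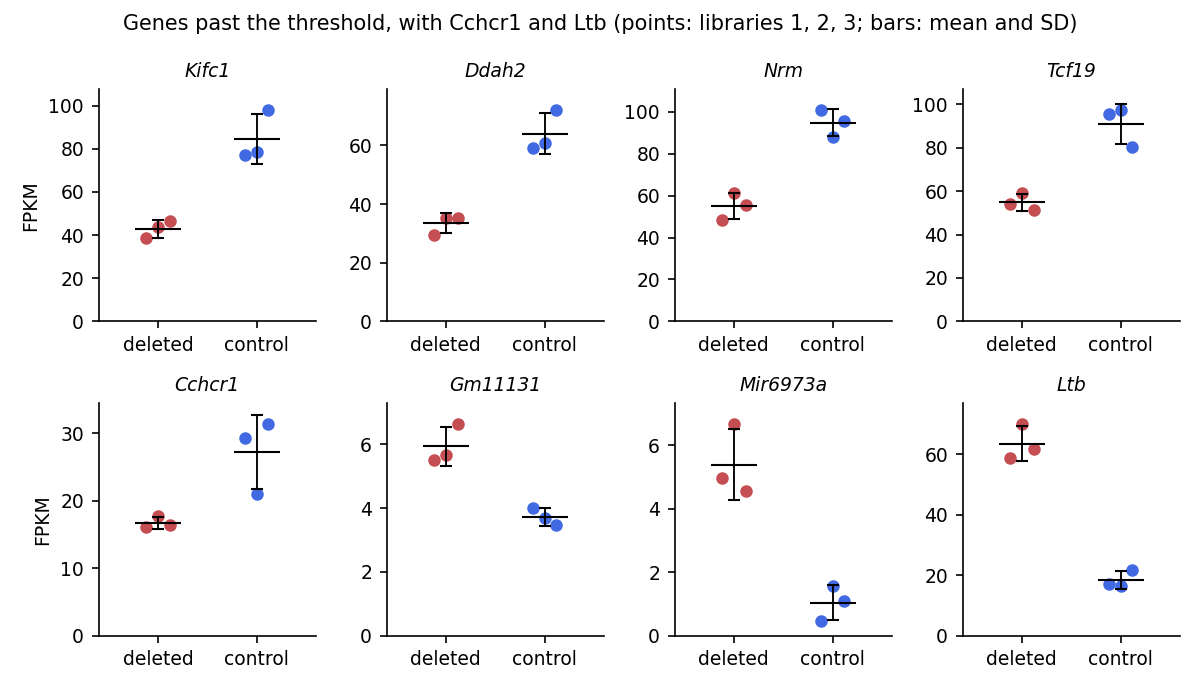
FPKM of the 6 genes that passed the threshold, with Cchcr1, which starts back to back with Tcf19, and Ltb, which holds Mir6973a in an intron. Skiv2l-deleted libraries are left (red) and controls right (blue), points are libraries 1, 2 and 3, and bars are the mean and SD. In all 8 panels the points of the groups do not overlap, which held for 32.2% of all genes tested. As 6 of the panels were chosen by the test on these same libraries, this is a description.

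Grouped by role, most genes of each list did not pass the test, and of all genes tested 8.84% were called. At that share lists this short hold few calls, so the counts below are given as a description. Of 20 genes for RNA processing and transcription, 1 fell (Tcf19), 0 rose and 19 did not pass, with a median log2 fold change of −0.08 against 0.06 over all genes tested. Dhx16, a helicase of splicing, stood at 33.4, 41.1 and 34.7 FPKM in Skiv2l-deleted libraries, against 47.8, 39.8 and 64.3 FPKM in controls. Deleted 2 lay above control 2, and the log2 fold change of −0.44 ± 0.19 (SE) missed the threshold (limma adjusted p = 0.192). Nfkbil1, a gene related to the inhibitors of NF-kappa-B, stood at 12.7, 14.1 and 14.1 FPKM in Skiv2l-deleted libraries, against 9.16, 8.72 and 11.7 FPKM in controls. All 3 deleted libraries were above all 3 controls, and the log2 fold change was 0.44 ± 0.14 (SE, limma adjusted p = 0.1). It was 0.56 and passed without control 3 (limma adjusted p = 0.0289), and 0.54 without control 3 and Skiv2l-deleted 2 (limma adjusted p = 0.0437). Gnl1, a gene of the same list that encodes a GTP-binding protein, stood at 22.4, 22.8 and 21.9 FPKM in Skiv2l-deleted libraries, against 16.2, 14.5 and 25.7 FPKM in controls. Its log2 fold change of 0.28 (limma adjusted p = 0.456) became 0.50 and passed without that pair of libraries (limma adjusted p = 0.0422). Gnl1 was named after its values were seen. The export helicase Ddx39b and the splicing factor Hnrnpm, named after their values were seen because of their high level, averaged 326.6 ± 28.6 and 228.7 ± 24.5 FPKM in deleted libraries, against 363.1 ± 77.5 and 242.4 ± 13.8 FPKM in controls (SD, n = 3 each). The 95% interval of the log2 fold change was −0.54 to 0.28 for Ddx39b and −0.36 to 0.19 for Hnrnpm.

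Of 7 chromatin and DNA repair genes, limma called 0 (1 at an unadjusted p under 0.05, Zbtb12). Brd2, which encodes a bromodomain reader of acetylated histones, stood at 117.6, 127.0 and 134.5 FPKM in Skiv2l-deleted libraries, against 117.3, 100.8 and 108.2 FPKM in controls. Its groups parted by a narrow gap, with a log2 fold change of 0.22 (limma adjusted p = 0.265). Msh5, a gene of meiotic recombination, stood at 16, 26.2 and 21.3 FPKM in Skiv2l-deleted libraries, against 23.6, 10.7 and 22.5 FPKM in controls, with groups that overlapped widely and an interval of −0.54 to 0.94 around a log2 fold change of 0.20. Zbtb22, a zinc finger gene, differed less still, at 16.9 to 20.7 FPKM in deleted libraries and 15.8 to 20.1 FPKM in controls.

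Of 6 genes for protein folding, limma called 0 (0 at an unadjusted p under 0.05), and their log2 fold changes lay between 0.01 and 0.12. Pfdn6, a subunit of the prefoldin chaperone, stood at 76.0, 87.8 and 81.5 FPKM in Skiv2l-deleted libraries, against 66.1, 65.9 and 102.0 FPKM in controls. Control 3 alone exceeded the deleted libraries. The stress-induced Hsp70 genes Hspa1a and Hspa1b were low and varied together. Hspa1b stood at 1.91, 3.92 and 7.54 FPKM in Skiv2l-deleted libraries, against 3.06, 2.72 and 6.02 FPKM in controls, and Hspa1a at 1.15, 2.61 and 4.96 against 1.89, 1.62 and 3.82 FPKM. Within each group library 3 was highest for both. These are near-identical copies between which reads can be split, and their sum was 3.06, 6.53 and 12.5 FPKM in deleted libraries, against 4.95, 4.34 and 9.84 FPKM in controls.

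Of 14 genes for the cytoskeleton, membrane traffic and signalling, 2 fell (Kifc1 and Nrm), 0 rose and 12 did not pass. Tubb5, a beta tubulin and the most abundant gene of the neighbourhood at a mean of 935 FPKM, stood at 869.8, 754.8 and 859.5 FPKM in Skiv2l-deleted libraries, against 1017, 1152 and 958.9 FPKM in controls. Its groups did not overlap, and its log2 fold change of −0.33 ± 0.12 (SE) did not pass (limma adjusted p = 0.155). Flot1, a scaffold protein of membrane microdomains, stood at 15.9, 23.4 and 18.0 FPKM in Skiv2l-deleted libraries, against 14.7, 12.2 and 20.8 FPKM in controls, and its groups overlapped (log2 fold change 0.27, limma adjusted p = 0.512).

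Of 11 genes for lipid, sugar and ion handling, 1 fell (Ddah2), 0 rose and 10 did not pass. Angptl4, an inhibitor of lipoprotein lipase, stood at 0.697, 0.988 and 0.619 FPKM in Skiv2l-deleted libraries, against 1.57, 3.39 and 1.57 FPKM in controls (log2 fold change −0.80, limma adjusted p = 0.0908). It reached 1 FPKM in controls alone, so it entered the test only through the group where it was high. Ppt2, a lysosomal thioesterase, stood at 8.19, 13.8 and 8.75 FPKM in Skiv2l-deleted libraries, against 8.40, 4.84 and 7.28 FPKM in controls. Deleted 2 was highest and control 2 lowest (log2 fold change 0.52 ± 0.25 (SE), limma adjusted p = 0.254). Of the 4 complement genes listed, C2 alone reached a mean of 1 FPKM. The 33 genes in no role list hold the 2 that rose, and 30 of the 32 tested did not pass.

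Of the myeloid and inflammatory genes of the neighbourhood, Myo1f, Lst1 and Pram1 were highest in the pair of libraries rich in myeloid markers, 1 from each group. Myo1f, a class I myosin of leukocytes, stood at 3.59, 23.1 and 4.30 FPKM in Skiv2l-deleted libraries, against 2.80, 1.74 and 11.6 FPKM in controls. Lst1, a leukocyte-specific transcript, stood at 2.15, 20.1 and 2.63 FPKM against 2.22, 1.11 and 14.3 FPKM in controls, and Pram1, an adaptor of myeloid cells, was listed at 0.225, 5.91 and 0 FPKM against 1.08, 0 and 3.65 FPKM in controls. In each, Skiv2l-deleted 2 was highest and control 3 second, the order of the summed myeloid markers given above. Fewer or more cells of a type and less or more RNA per cell cannot be told apart in such bulk samples. In 25 of the 95 genes (26.3%) these 2 libraries were both above the other 4, which held for 16.1% of all genes tested. In 2 genes both were below, for which the share over all genes is not given here. The FPKM totals of these 2 libraries were also the highest, 551712 in control 3 and 544100 in Skiv2l-deleted 2. Those of the other 4 ran from 498125 to 506046. The main test applied no scaling between libraries, and the part of these totals was not tested. Of the 4 neighbourhood genes in the list of myeloid and inflammatory genes, limma called 0 (1 at an unadjusted p under 0.05, Tnf). Tnf, the tumour necrosis factor gene, stood at 1.49, 1.58 and 2.02 FPKM in Skiv2l-deleted libraries, against 0.457, 0.373 and 1.48 FPKM in controls. The lowest deleted library barely exceeded control 3, and the log2 fold change of 0.66 missed the threshold (limma adjusted p = 0.162) but was 0.93 without control 3 (limma adjusted p = 0.0204).

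**Figure D5:**
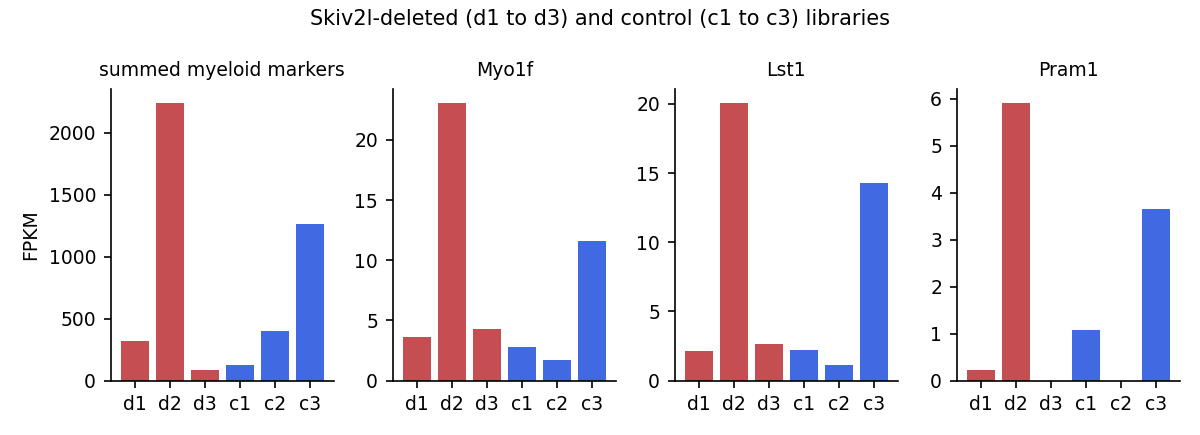
Summed FPKM of 7 myeloid markers and FPKM of Myo1f, Lst1 and Pram1 in each library, with Skiv2l-deleted libraries 1 to 3 (d1 to d3, red) left and control libraries 1 to 3 (c1 to c3, blue) right. In all 4 panels Skiv2l-deleted 2 is highest and control 3 second.

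Back-to-back gene pairs were common: 11 pairs of expressed genes, at least 1 of each pair in the neighbourhood set, started within 1000 bases of each other and pointed apart. The signs of the 2 log2 fold changes matched in 4 of the 11. Rxrb was counted both with Gm20427, where the signs matched, and with Slc39a7, where they did not. As Gm20427 and Slc39a7 overlap on the same strand, the 11 pairs are not all separate. Tcf19 and Cchcr1 were the one pair with a call. At Skiv2l and Nelfe the values were −1.21 and 0.03, and at Stk19 and Dxo 0.16 and −0.33. Stretches where annotated genes overlap on the same strand gave single values that cannot be read alone. In this way Pram1 shares 87.5% of its exon bases with Gm20507, C2 42.8% with Gm20547 and Ppt2 36.6% with Gm20460. Gm20427 stood at 12.5, 17.2 and 18.8 FPKM in Skiv2l-deleted libraries, against 16.5, 15.9 and 2.06 FPKM in controls, while Slc39a7, a zinc transporter gene whose span it overlaps on the same strand, stood at 30.7, 39.5 and 24.6 FPKM against 23.4, 25.5 and 59.5 FPKM in controls. Control 3 was lowest for Gm20427 and highest for Slc39a7, and the sum of the pair was 43.2, 56.8 and 43.3 FPKM in deleted libraries, against 39.9, 41.5 and 61.5 FPKM in controls.

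The edges of the set were as follows. Just above a mean of 1 FPKM lay Gm15821 (mean 1.09 FPKM) and Hspa1l (1.18 FPKM), and just below it Aif1 (0.981 FPKM) and Gm10501 (0.958 FPKM). Aif1, a macrophage gene, was listed at 0, 3.24 and 0.274 FPKM in Skiv2l-deleted libraries, against 0.335, 0 and 2.04 FPKM in controls, highest in the same pair of libraries as Myo1f and Lst1. The outermost genes were Adamts10, 1315 kb below Skiv2l, and Gm8909, 1325 kb above it. The median level of the 96 genes was 17.7 FPKM. Of the 90 matched to GENCODE M21, 73 are annotated as protein-coding. The other 6, Brd2 and Slc39a7 among them, were not matched and have no type given here.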

How the data were processed

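The authors deposited 1 table per mouse with FPKM, TPM and mean coverage per gene, as the file headers show. The submitters' processing notes name GRCm38 as genome build. The aligner, the quantification tool and its strand setting are not given in these sources. Libraries were strand-specific, per the labels' protocols. Coverage divided by FPKM was constant in 41.9% to 43.1% of genes per library and gave the aligned bases. The 7 to 9 identifiers on several lines were summed. The deposited FPKM values are not counts, so limma 3.58.1 (R 4.3.3, eBayes with a mean-variance trend) was run on log2(FPKM + 1) with genotype as the only term. P-values were adjusted by Benjamini-Hochberg over all 13539 genes tested. Low genes have their fold change understated on this scale. TPM, other scalings, pseudocounts and filters, left-out libraries and a replicate block were the alternatives. Nothing says that the mice came from separate litters, so p-values measure the spread between these mice. Of the 96 genes, 90 were matched to GENCODE M21 by versioned identifier, all 90 with the same coordinates. Exons overlapped another gene in 47 of them, on the same strand in 15. The genes and role lists were chosen with earlier results of these data known. Named were the 10 nearest genes, every gene that passed, in each role list the 4 with the largest absolute log2 fold change, and the genes at the edges of the set. Cchcr1, the overlapping and back-to-back pairs, the motifs and the ratios of Skiv2l to its neighbours were singled out after values were seen.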

Additional observations from a re-analysis of the deposited data

How the results depend on the processing

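The median log2 fold change of the neighbourhood stayed between −0.039 and 0.095 when 1 library was left out. The counts of neighbourhood genes that rose and fell were 0 to 6 and 0 to 4, and those of all genes 63 to 1020 and 113 to 729. In the bins from the nearest to the farthest, 1 library left out gave 0 to 1, 0 to 2, 0 to 3 and 0 to 4 calls and medians of −0.024 to 0.262, −0.075 to 0.109, 0.095 to 0.49 and −0.027 to 0.051. With TPM, upper-quartile scaling or quantile normalization 1 neighbourhood gene rose in place of 2, and 1 was called from 300 to 600 kb. With no filter on low values 0 rose, 0 were called from 300 to 600 kb, and 280 genes rose and 232 fell in all. Without control 3 and Skiv2l-deleted 2, 4 rose, with 1 call and a median of 0.232 up to 100 kb and a median of 0.069 from 300 to 600 kb. The cause was not tested. The replicate numbers do not pair the mice by the labels, and deviations of same-numbered libraries correlated at 0.094, −0.428 and −0.355. With the replicate block, 185 genes rose and 180 fell in all, 1 neighbourhood gene rose and 2 fell (Nrm and Tcf19 were lost, at limma adjusted p = 0.0674 and 0.0561), 1 was called from 300 to 600 kb and 1 beyond 600 kb. Over the 16 alternatives the median of all genes tested stayed between 0.01 and 0.07. The tables hold no read counts, so the precision that depth gives each gene is unknown.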
